A study of Mus musculus with 10 samples.

Results

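The transcripts of 9 chemokine genes, Cxcl1, Cxcl2, Cxcl5, Cxcl14, Cxcl16, Ccl2, Ccl7, Ccl20 and Ccl27a, were followed in murine keratinocytes and CD8+ T cells. These genes were chosen by name as chemokines that epidermal cells can make and that are mostly known for the recruitment of neutrophils, monocytes and other leukocytes. Each of the 9 symbols matched 1 of the 25814 genes in the table of every library. RNA had been sequenced from 10 libraries, 2 for each of 5 groups. Primary keratinocytes of C57/B6 mice were kept alone or co-cultured with splenic CD8+ T cells, and the T cells were washed off before lysis. The methods name tails of adult mice or newborn mice as the origin of keratinocytes, and do not assign the sequenced ones to either. The CD8+ T cells formed 3 groups, namely cells that had been activated with Abs against CD3 and CD28 over 1 d, activated cells kept for 1 d more in keratinocyte medium (in the methods, a mix of keratinocyte SFM and X-VIVO medium) without keratinocytes, and activated cells co-cultured with keratinocytes. All T cells had thus been activated, and no resting T cells were among the groups. Replicate numbers 1 and 2 are taken from the labels for keratinocytes and for activated T cells, whereas libraries of the other T-cell groups are called a and b here and pair with nothing. For the length of the co-culture the sources differ. The methods and the labels of the co-cultured T cells give 1 d, and the design text gives 1 h. Whether the keratinocytes kept alone also received the T-cell medium that was part of the co-culture is not stated, so medium and the presence of T cells cannot be told apart. The sources used here do not say which animals or cultures gave which library, so p-values measure the spread between these libraries only.

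Chemokines are small secreted proteins that bind to G protein-coupled receptors on leukocytes and direct their migration. CXC chemokines with the ELR motif, among them CXCL1, CXCL2 and CXCL5, attract neutrophils through CXCR2, while CCL2 and CCL7 attract monocytes through CCR2. Keratinocytes are known to transcribe several of these genes upon stimulation by IL-1 and TNF, in part through NF-kB factors binding to their promoters.

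The promoters of Cxcl1, Cxcl2 and Ccl20 are shown since the levels of these genes varied together between the keratinocyte libraries, and that of Cxcl14 since its levels did not follow them. The 250 bases upstream of the RefSeq start (GRCm38.p6) are given 5′ to 3′ on the strand of the gene, and capitals mark letters that match the NF-kB, GAS or ISRE consensus on either strand. They lie at chr5:90890995-90891244 (+) for Cxcl1, chr5:90903649-90903898 (+) for Cxcl2, chr1:83116516-83116765 (+) for Ccl20 and chr13:56296552-56296801 (-) for Cxcl14.
Cxcl1: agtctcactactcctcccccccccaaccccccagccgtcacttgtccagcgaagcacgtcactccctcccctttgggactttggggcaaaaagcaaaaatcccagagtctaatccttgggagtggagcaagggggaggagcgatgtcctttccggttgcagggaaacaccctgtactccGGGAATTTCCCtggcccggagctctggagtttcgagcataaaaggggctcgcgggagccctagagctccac
Cxcl2: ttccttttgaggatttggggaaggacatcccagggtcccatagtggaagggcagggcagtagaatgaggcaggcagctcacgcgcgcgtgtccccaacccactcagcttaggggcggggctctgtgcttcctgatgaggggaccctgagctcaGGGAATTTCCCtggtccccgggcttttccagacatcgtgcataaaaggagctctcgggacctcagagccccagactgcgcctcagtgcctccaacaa
Ccl20: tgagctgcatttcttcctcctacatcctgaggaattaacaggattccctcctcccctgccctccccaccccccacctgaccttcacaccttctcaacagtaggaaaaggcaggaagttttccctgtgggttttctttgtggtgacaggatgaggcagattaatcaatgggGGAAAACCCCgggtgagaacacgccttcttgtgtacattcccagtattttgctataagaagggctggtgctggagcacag
Cxcl14: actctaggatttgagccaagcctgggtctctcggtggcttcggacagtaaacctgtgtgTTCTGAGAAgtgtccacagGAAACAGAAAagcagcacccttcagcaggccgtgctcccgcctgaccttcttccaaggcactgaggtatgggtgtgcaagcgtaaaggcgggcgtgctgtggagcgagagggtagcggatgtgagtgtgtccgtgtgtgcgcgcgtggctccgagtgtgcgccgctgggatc
The NF-kB consensus was matched in Cxcl1, Cxcl2 and Ccl20 and not in Cxcl14, and 7.25% of the 32851 promoter windows of this length in the RefSeq table hold it. The GAS letters TTCNNNGAA and the ISRE consensus, which bind STAT and IRF factors, were matched in Cxcl14 only among these 4 windows, and occur in 7.02% and 2.98% of all windows. The decamer GGGAATTTCC was present in both Cxcl1, 71 to 62 bases before the start, and Cxcl2, 97 to 88 bases before the start. It overlaps a match on the other strand that is shifted by 1 base, and it occurs in 28 of all 32851 windows (0.0852%). The longest run that Cxcl1 and Cxcl2 shared was GGGAATTTCCCTGG, and both of these windows were the only ones with it. The decamer and this run were chosen after the sequences had been seen. A match of letters is a description of the window and does not show that a factor binds there. Since the 4 windows were picked by the levels of their genes, the contrast between them is not a test. Cxcl5, Cxcl16, Ccl2 and Ccl7 have no entry in the promoter table, and the 3 entries of Ccl27a are not printed and their matches are not given. The deposited tables place the starts of Cxcl1 and Cxcl2 further upstream than RefSeq, so that the last 4 bases of the Cxcl1 window and the last 28 bases of the Cxcl2 window lie inside these genes.

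The members lie on 5 chromosomes (GRCm38 coordinates as deposited). Cxcl5 (chr5:90759360-90761624), Cxcl1 (chr5:90891241-90893115) and Cxcl2 (chr5:90903871-90905938) are part of the CXC cluster on chromosome 5, where Cxcl1 ends 10756 bases before Cxcl2 starts. Ccl2 (chr11:82035571-82037453) and Ccl7 (chr11:82045712-82047525) are neighbours that lie 8259 bases apart. Cxcl16 (chr11:70453983-70459984), Cxcl14 (chr13:56288643-56296551) and Ccl27a (chr4:41769467-41774247) are on the minus strand, and Ccl20 (chr1:83116766-83119167) is on the plus strand.

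Between 12864931 and 18019609 reads were counted on exons per library. RPKM values are these reads scaled to exon length and to the number of mapped reads, so that they can be compared between genes. For a gene with 1 kb of exons, 3 reads amounted to 0.158 to 0.212 RPKM. This floor covers counting error only. The keratinocyte libraries were checked with 14 keratinocyte markers, of which 13 were at 5 or more RPKM in each library, and their summed level was 24594 to 28517 RPKM. T-cell RNA was also found in these libraries. The 12 T-cell markers summed to 114 and 446 RPKM in replicates 1 and 2 of keratinocytes alone and to 146 and 793 RPKM in those of co-cultured keratinocytes, against 1377 to 2943 RPKM in the T-cell libraries. Cd8a, which defines CD8+ T cells, stayed at or below 1.16 RPKM in keratinocytes, whereas Cd4 was at 11.4 to 84.5 RPKM there and also at 16.8 to 102 RPKM in the T-cell libraries. Trac and Trbc2, which encode constant parts of the T-cell receptor, were at 0 reads in all 10 libraries. Of the markers of other cells, 11 myeloid markers summed to 47.6 to 120 RPKM in keratinocytes, with Cd207 at 0 reads. In the T-cell libraries these summed to 29.7 to 142 RPKM. In keratinocytes, 6 B-cell markers summed to at most 4.13 RPKM, 6 endothelial markers to at most 3.03 RPKM and 6 melanocyte markers to 8.83 to 22.0 RPKM. Of 11 fibroblast markers only Thy1, which T cells also express, was at 5 or more RPKM.

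Cxcl16 was the most abundant of the 9 chemokines in all 4 keratinocyte libraries. It encodes a chemokine that is made as a transmembrane protein, acts as the ligand of CXCR6 and can be shed by ADAM10. Keratinocytes alone had 54.4 and 47.8 RPKM in replicates 1 and 2, and co-cultured keratinocytes 94.4 and 81.5 RPKM. The co-cultured libraries both exceeded the 2 others. The group means were 51.1 ± 4.69 (SD, n = 2) and 88.0 ± 9.12 RPKM (SD, n = 2), a 1.72-fold difference. The log2 fold change was 0.85 (SE 0.28, 95% interval 0.12 to 1.59), with an unadjusted p of 0.0302 and an adjusted p of 0.658 over 12515 genes (edgeR's quasi-likelihood test with Benjamini-Hochberg adjustment). The difference therefore did not pass the threshold of 0.05. In these bulk libraries, a change in the number of cells of a type and a change in RNA per cell cannot be told apart. Of all genes tested, 7.20% had an unadjusted p under 0.05 in either direction, 3.08% upward, and 22.2% had both co-cultured libraries above both others. Of the Cxcl16 exon reads 69.9% were uniquely mapped, and with these reads alone the log2 fold change was 0.85 (adjusted p 0.644, edgeR). In GENCODE vM21, 552 exon bases of Cxcl16 are shared with Zmynd15 on the other strand, and the use of strand in counting is not stated. Zmynd15, named after its values were seen, had 18, 0, 14 and 0 reads in the 4 keratinocyte libraries, against 2195 to 3874 reads of Cxcl16.

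Cxcl16 made up 55.6% and 74.3% of the summed RPKM of the 9 members in replicates 1 and 2 of keratinocytes alone. In co-cultured keratinocytes this share was 70.7% and 80.5%. The other 8 members together reached 43.5 and 16.5 RPKM in keratinocytes alone and 39.2 and 19.7 RPKM in co-culture, so that replicate 1 was the higher in both groups.

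None of the 8 members tested was called as changed between keratinocytes alone and co-cultured keratinocytes. This matched the whole table, where 0% of the 12515 genes passed the adjusted p of 0.05 in edgeR's test, with 901 genes at an unadjusted p under 0.05 and 186 genes called by DESeq2. None of the members was among the latter. Of the 8 members 5 had a positive and 3 a negative log2 fold change, with a median of 0.45 against 0.02 for all genes tested. Cxcl16 and Ccl2 were without overlap higher and Cxcl14 was without overlap lower in co-culture, while 45.7% of all genes tested had no overlap in either direction. With 2 libraries against 2, an exact two-sided permutation test of a single gene cannot give a p under 0.333.

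**Figure D1:**
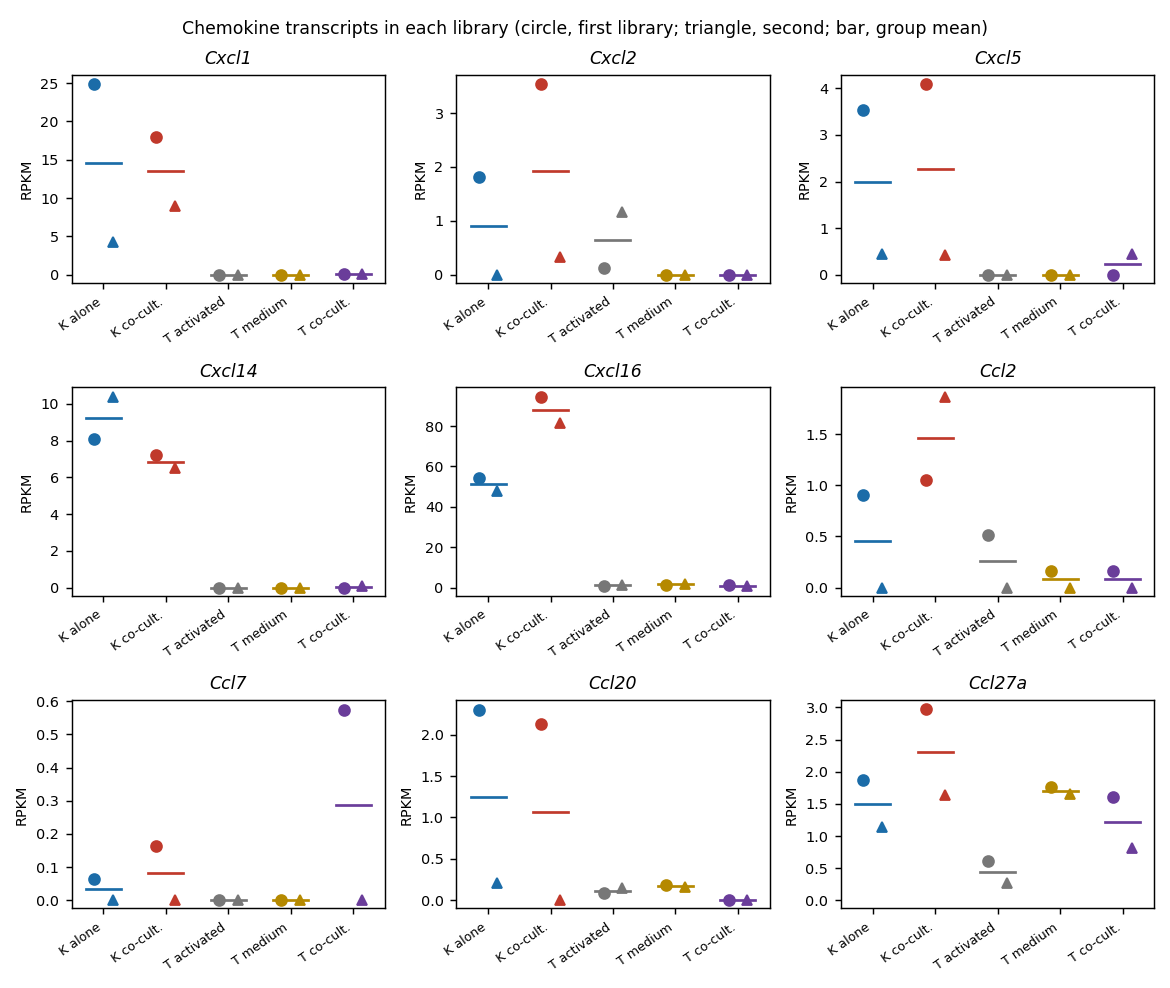
RPKM of the 9 chemokines in each of the 10 libraries, with a panel and a linear axis of its own for every gene. Circles are replicate 1 or library a, triangles replicate 2 or library b, and bars the mean of 2 libraries. Cxcl16 separates the keratinocyte groups, whereas Cxcl1, Cxcl2, Cxcl5 and Ccl20 are spread between circles and triangles within a group.

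Among the ligands of CXCR2, Cxcl1 was the most abundant member. Keratinocytes alone had 24.9 and 4.31 RPKM (450 and 70 reads) in replicates 1 and 2, and co-cultured keratinocytes 18.0 and 8.97 RPKM (261 and 141 reads). The groups overlapped, and both co-cultured libraries lay between the libraries of keratinocytes alone. Mean levels were 14.6 ± 14.5 (SD, n = 2) and 13.5 ± 6.40 RPKM (SD, n = 2). The log2 fold change was -0.04 (SE 0.85, 95% interval -2.24 to 2.17, adjusted p 0.987 by edgeR), an interval that includes more than 4-fold differences either way.

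Cxcl2 and Cxcl5 encode further neutrophil attractants and were lower than Cxcl1 in all 4 keratinocyte libraries. Cxcl2 was at 1.81 and 0 RPKM (64 and 0 reads) in replicates 1 and 2 of keratinocytes alone versus 3.54 and 0.326 RPKM (100 and 10 reads) upon co-culture. Cxcl5 was at 3.55 and 0.447 RPKM (106 and 12 reads) alone versus 4.09 and 0.423 RPKM (98 and 11 reads) upon co-culture. For both genes the replicate 1 libraries were high and the replicate 2 libraries low in either group, and the groups overlapped. The log2 fold changes were 1.13 for Cxcl2 (SE 1.97, adjusted p 0.836) and 0.22 for Cxcl5 (SE 1.36, adjusted p 0.957), both by edgeR.

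Ccl20, which attracts CCR6-bearing lymphocytes and dendritic cells, had the same distribution over the libraries. Keratinocytes alone had 2.30 and 0.207 RPKM (62 and 5 reads), and co-cultured keratinocytes 2.13 and 0 RPKM (46 and 0 reads). The groups overlapped, with a log2 fold change of -0.21 (SE 2.01, adjusted p 0.972 by edgeR).

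For 6 of the 9 members, Cxcl1, Cxcl2, Cxcl5, Ccl7, Ccl20 and Ccl27a, the gap between replicates was wider in both groups than the difference between the groups. How many of all genes tested met the same rule was not counted, so it is not read as particular to these members. On the log2(RPKM + 0.1) scale, replicate 1 exceeded replicate 2 in keratinocytes alone by 2.50 for Cxcl1, 4.26 for Cxcl2, 2.74 for Cxcl5 and 2.97 for Ccl20. In co-cultured keratinocytes these gaps ranged from 1.00 for Cxcl1 to 4.48 for Ccl20. For Ccl27a the gaps were 0.67 alone and 0.82 in co-culture against a group difference of 0.57, and for Ccl7, at 0 to 2 reads, they were 0.73 and 1.40 against 0.34. The median absolute gap over the 12515 genes tested was 0.39 in keratinocytes alone and 0.62 in co-cultured keratinocytes. Replicate 1 exceeded replicate 2 by 2 or more in both groups for 35 of these genes (0.280%), with Cxcl2, Cxcl5 and Ccl20 among them, and replicate 2 exceeded replicate 1 by as much for 131 genes (1.05%). This limit was chosen after the values had been seen. The T-cell markers summed to more in replicate 2 of both groups, and 9 of 11 myeloid markers were higher in replicate 2 of both groups. Cd68, the highest of the myeloid markers in keratinocytes, was higher in replicate 1 of both, with 40.7 and 39.4 RPKM alone versus 29.7 and 24.02 RPKM upon co-culture. Their part in these gaps was not tested.

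**Figure D2:**
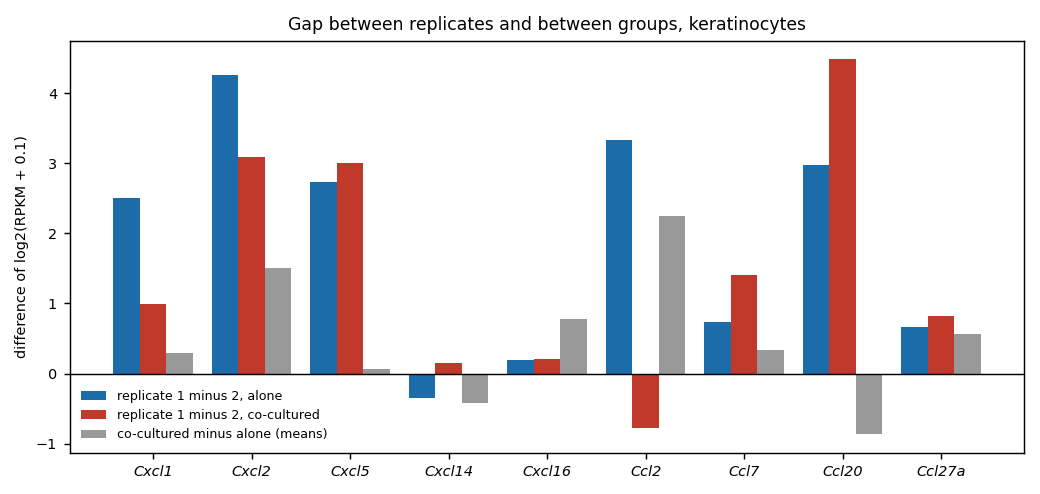
Bars show, for the 9 chemokines on the x axis, the difference of log2(RPKM + 0.1) between replicates 1 and 2 of keratinocytes alone (blue), between those of co-cultured keratinocytes (red) and between the group means, co-cultured minus alone (grey). For Cxcl1, Cxcl2, Cxcl5, Ccl7, Ccl20 and Ccl27a the blue and red bars exceed the grey bar in length, while for Cxcl16 the grey bar is the longest at 0.78.

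Cxcl14, a chemokine that is transcribed in resting epithelia, was at 8.10 and 10.4 RPKM (281 and 323 reads) in keratinocytes alone versus 7.20 and 6.50 RPKM (200 and 196 reads) upon co-culture. Both co-cultured libraries were below both others. The log2 fold change was -0.37 (SE 0.35, 95% interval -1.27 to 0.54, adjusted p 0.737 by edgeR), so that a fall by more than 2-fold or a small rise could not be told apart at this number of libraries. Of all genes tested, 23.5% were without overlap lower. Cxcl14 took the third place among the members in 3 of 4 keratinocyte libraries and the second place in replicate 2 of keratinocytes alone, where it exceeded Cxcl1.

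The genes for the monocyte attractants CCL2 and CCL7 were near the floor. Ccl2 had 14 and 0 reads (0.907 and 0 RPKM) in keratinocytes alone, compared with 13 and 25 reads (1.05 and 1.86 RPKM) in co-culture, with a log2 fold change of 1.77 (SE 1.66, adjusted p 0.735 by edgeR). Only 7 of its 63 exon reads over all libraries were uniquely mapped (11.1%), so that its values remain uncertain. Its uniquely mapped reads were 3 and 0 in keratinocytes alone and 0 and 1 in co-culture. The log2 ratio of the group means of these reads was -1.23, but they are too few to give a direction. Ccl2 did not pass the filter in the fit of uniquely mapped reads. Ccl7 had 1 read in replicate 1 of keratinocytes alone, 2 reads in replicate 1 of the co-culture and 0 reads in both others, and was removed by the filter on low counts. It was therefore not detectable above 3 reads in any keratinocyte library.

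Ccl27a encodes a skin-associated chemokine that binds to CCR10 on T cells. It had 1.87 and 1.14 RPKM (55 and 30 reads) in keratinocytes alone and 2.98 and 1.64 RPKM (70 and 42 reads) in co-culture, and the groups overlapped. The log2 fold change was 0.68 (SE 0.67, adjusted p 0.741 by edgeR). Only 28.8% of its reads were uniquely mapped, and its near-identical copies Ccl27b and Gm13306 were at 0 reads in all libraries, so that the assignment of these reads is uncertain. The last exon of Ccl27a shares 8 bases with Il11ra1 on the other strand in GENCODE vM21.

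**Figure D3:**
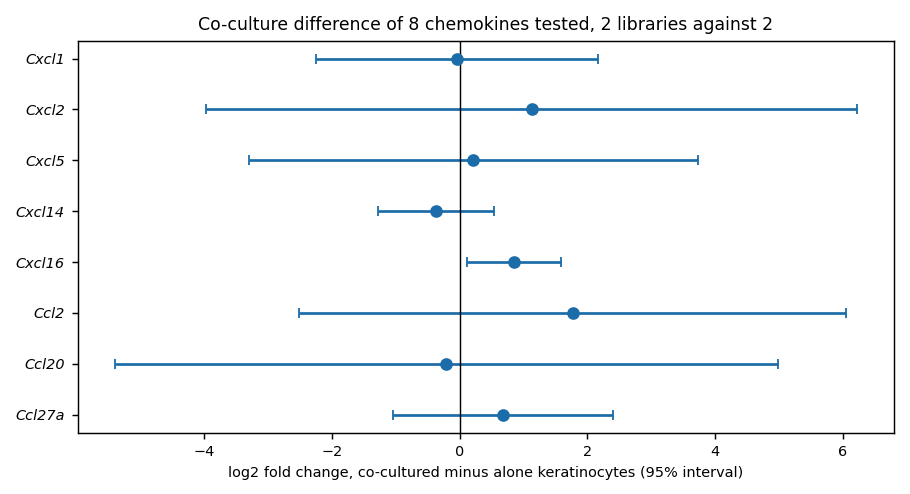
Points are log2 fold changes of co-cultured minus alone keratinocytes for the 8 chemokines tested, fitted by edgeR to 2 libraries against 2, and bars are 95% intervals. The interval of Cxcl16, from 0.12 to 1.59, is the one that lies above 0, but its adjusted p is 0.658, and those of Cxcl2, Ccl2 and Ccl20 span several log2 units.

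Next, the level of each chemokine in keratinocytes alone was compared with that in T cells kept in keratinocyte medium without keratinocytes. In this fit of all 10 libraries 8 members were tested, and 5 of them were higher in both keratinocyte libraries than in both T-cell libraries, as were 42.8% of all genes. Cxcl1, Cxcl14 and Cxcl16 were higher in keratinocytes, and 22.4% of the 13394 genes tested were called in this direction. Members without a read in these T cells, Cxcl1, Cxcl2, Cxcl5 and Cxcl14, passed the filter on low counts through other libraries, chiefly those of keratinocytes. The counts of members therefore carry no support beside the shares of all genes, and the adjusted p-values of these 4 are given as a description. The median log2 fold change of all genes was 0.18. Cxcl16 exceeded the T cells 32.0-fold, with 1.34 and 1.85 RPKM in T-cell libraries a and b (log2 fold change 4.93, SE 0.46, adjusted p 0.000236 by edgeR). Cxcl1 and Cxcl14 were at 0 reads in both of these T-cell libraries. With the T cells set to 3 reads per library, the mean of the keratinocyte libraries was at least 75.6-fold and 91.8-fold higher (adjusted p 0.00321 and 0.00152 by edgeR). These bounds hold for the mean and not for each library. For Cxcl1 the mean rests on 24.9 and 4.31 RPKM in replicates 1 and 2, against a floor of 0.193 RPKM. Cxcl5 was also at 0 reads there and its mean in keratinocytes was at least 17.1-fold higher, but it did not pass the threshold (adjusted p 0.0597 by edgeR). Its replicates 1 and 2 were at 3.55 and 0.447 RPKM, against a floor of 0.117 RPKM.

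Cxcl2, Ccl2 and Ccl20 did not pass the threshold in this comparison, with adjusted p-values of 0.114, 0.434 and 0.322 (edgeR). Ccl27a was at 1.76 and 1.65 RPKM in the T cells, within the range of the 4 keratinocyte libraries, with a log2 fold change of -0.23 (SE 0.78, adjusted p 0.837 by edgeR). Ccl7 could not be tested.

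Within the T cells, most members were at or near 0 in every group. Cxcl1, Cxcl5 and Cxcl14 had no read in activated T cells or in T cells kept in medium. In T cells a and b of the co-culture, Cxcl1 had 2 and 1 reads, Cxcl14 had 0 and 2 reads and Cxcl5 had 0 and 10 reads. Ccl7 was found with 7 reads in library a of the co-cultured T cells, more than in any keratinocyte library, and with 0 reads in library b.

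These libraries also held keratin transcripts. Krt17 was at 98.3 and 64.2 RPKM in co-cultured T cells a and b, against 0.250 and 0.860 RPKM in T cells kept in medium, and Krt6a was at 41.9 and 16.3 RPKM against 0.256 and 0.356 RPKM. Krt14, Krt17, Krt6a and Perp were called as higher in co-cultured T cells out of the 14 keratinocyte markers (adjusted p of 0.0449, 0.00714, 0.00724 and 0.0131 by edgeR), where 0.261% of 11863 genes were called. Mean levels in co-cultured T cells were 0.0970% of those in co-cultured keratinocytes for Krt5, 0.396% for Krt14, 0.508% for Krt6a, 1.23% for Perp and 1.49% for Krt17. Among the members they were 0.785% for Cxcl1, 0.564% for Cxcl14 and 0.968% for Cxcl16. The part of keratinocyte RNA in the few chemokine reads of these libraries was not tested.

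Cxcl2 was found in activated T cells, with 4 and 31 reads (0.128 and 1.16 RPKM) in replicates 1 and 2. It had 0 reads in all 4 libraries of the other T-cell groups. Cxcl16 was at 0.727 and 1.47 RPKM in activated T cells, at 1.34 and 1.85 RPKM in those kept in medium and at 1.02 and 0.681 RPKM in co-culture. Neither the difference between medium and activation (log2 fold change 0.68, SE 0.74, adjusted p 0.629 by edgeR) nor that between co-culture and medium (-0.88, SE 0.74, adjusted p 1.0) passed the threshold. Both Cxcl16 and Ccl27a were lower in both co-cultured libraries than in medium, as were 12% of all genes tested. Ccl27a was at 0.615 and 0.269 RPKM in activated T cells and at 1.61 and 0.822 RPKM in co-culture. It was higher in medium than in activated T cells without overlap (log2 fold change 2.09, SE 0.98, adjusted p 0.232 by edgeR), as were 26.2% of all genes tested, and it did not pass the threshold. Cxcl16 and Ccl27a were the only members that passed the filter in the T-cell libraries, and 0 of these 2 were called in either comparison, where 6.54% and 0.261% of 11863 genes were called. At an unadjusted p under 0.05 the count was also 0 of 2 in both comparisons, with 25.0% and 3.45% of all genes, and DESeq2 and limma called neither of them. The T cells kept in medium enter both of these comparisons and the one with keratinocytes.

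Both keratinocyte groups were above all T-cell groups in mean RPKM for Cxcl1, Cxcl2, Cxcl5, Cxcl14, Cxcl16, Ccl2 and Ccl20, but not for Ccl7 and Ccl27a. The highest mean was that of keratinocytes alone for Cxcl1, Cxcl14 and Ccl20 and that of the co-culture for Cxcl2, Cxcl5, Cxcl16 and Ccl2. For Cxcl1, Cxcl14 and Cxcl16 the lowest keratinocyte library exceeded the highest T-cell library, whereas for Cxcl5 replicate 2 of the co-cultured keratinocytes, at 0.423 RPKM, was below library b of the co-cultured T cells, at 0.449 RPKM. For Cxcl2 and Ccl2, replicate 2 of keratinocytes alone had 0 reads and was below T-cell libraries with reads. The same held for Ccl20 in replicate 2 of the co-cultured keratinocytes. The 2 keratinocyte groups overlapped for Cxcl1, Cxcl2, Cxcl5 and Ccl20.

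Within the CXC cluster on chromosome 5, the keratinocytes also transcribed Ppbp, which encodes another CXCR2 ligand. Ppbp was at 27.6 and 15.6 RPKM in replicates 1 and 2 of keratinocytes alone versus 122 and 32.9 RPKM upon co-culture. Both co-cultured libraries were above both others, but the log2 fold change of 1.88 (SE 0.67) had an unadjusted p of 0.0384 and an adjusted p of 0.658 (edgeR). It was thus more abundant than Cxcl1 in every keratinocyte library. Cxcl3, a further CXCR2 ligand of the cluster that was named after its values were seen, was at 2.44 and 3.01 RPKM alone versus 4.14 and 1.07 RPKM upon co-culture. Cxcl15 had 0 reads in these 4 libraries, and Pf4 had reads in replicate 2 of the co-culture only, at 0.433 RPKM.

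**Figure D4:**
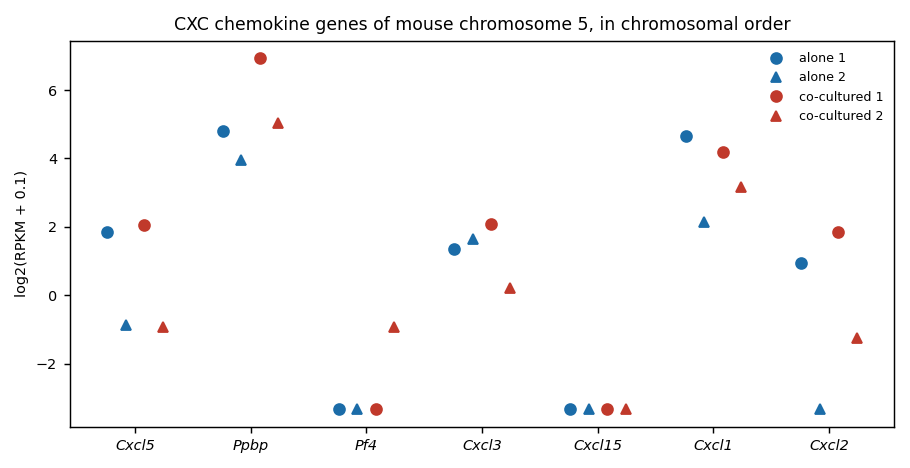
log2(RPKM + 0.1) of the CXC genes of the chromosome 5 cluster in the 4 keratinocyte libraries, with genes in chromosomal order on the x axis. Blue marks keratinocytes alone, red co-culture, circles replicate 1 and triangles replicate 2. Ppbp and Cxcl1 are the highest, and points at the bottom are libraries with 0 reads.

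Of 30 other chemokine genes 13 were tested between the keratinocyte groups, and none was called. Their median log2 fold change was 1.01, and 4 had an unadjusted p under 0.05, all upward, against 3.08% of all genes tested. The 3 with the highest mean level in keratinocytes were Ccl5, Cxcl9 and Ppbp. Cxcl9, which attracts T cells through CXCR3, was at 0.0365 and 0.0813 RPKM in keratinocytes alone versus 175 and 62.5 RPKM upon co-culture (log2 fold change 10.97, SE 0.88). Its unadjusted p was 6.53e-05 and its adjusted p 0.434 (edgeR), so that even a difference of this size was not called. A missing call in this test therefore does not show that a gene was unchanged. Ccl5 was at 35.1 and 145 RPKM alone versus 53.5 and 287 RPKM upon co-culture, with replicate 2 high in both groups as for the T-cell markers, and at 256 to 335 RPKM in the T cells kept in medium or co-cultured.

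Of 11 receptor genes 7 were tested between the keratinocyte groups and none was called, and 1 had an unadjusted p under 0.05, against 7.20% of all genes. Cxcr6, the receptor of CXCL16, was at 5.89 and 25.3 RPKM in replicates 1 and 2 of keratinocytes alone, at 8.86 and 51.7 RPKM in co-culture and at 39.7 and 63.4 RPKM in T cells kept in medium. Replicate 2 was the higher in both keratinocyte groups, as it was for Ccr6 (1.51 and 6.98 RPKM alone) and Ccr10 (1.04 and 3.78 RPKM alone). Cxcr2 was at 3.08 and 3.93 RPKM in keratinocytes alone, at 0.712 and 0.676 RPKM in co-culture and at 0 reads in T cells kept in medium. It was higher in keratinocytes alone than in these T cells (adjusted p 0.00346 by edgeR), and the co-culture difference of -2.26 in log2 fold change (SE 0.47) had an unadjusted p of 0.00512 but an adjusted p of 0.658.

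Of 22 genes for signals upstream of these chemokines 19 were tested between the keratinocyte groups and 0 were called or had an unadjusted p under 0.05, with a median log2 fold change of 0.23. Il17rc, Tnfrsf1a and Ifngr1, which encode receptor chains for IL-17, TNF and IFN-γ, had the highest levels. Tnfrsf1a was at 48.5 and 60.8 RPKM in keratinocytes alone versus 67.9 and 57.7 RPKM upon co-culture. Il1a and Tnf, named after their values were seen, were higher in replicate 1 of both groups. Il1a, which encodes the alarmin IL-1α, was at 27.6 and 8.30 RPKM alone versus 56.5 and 16.3 RPKM upon co-culture, and Tnf was at 8.004 and 1.25 RPKM alone versus 27.2 and 3.77 RPKM upon co-culture. The part of IL-1α and TNF in the levels of Cxcl1, Cxcl2, Cxcl5 and Ccl20 was not tested.

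Of 20 known NF-kB targets 17 were tested and none was called, with a median log2 fold change of 0.19. In all, 2 of them had an unadjusted p under 0.05 upward and 1 downward, against 7.20% of all genes in either direction. Nfkbia, which encodes the inhibitor IκBα and had the highest level, was at 146 and 120 RPKM in keratinocytes alone versus 261 and 348 RPKM upon co-culture (log2 fold change 1.28, SE 0.35, adjusted p 0.658 by edgeR). Nfkbiz was at 43.3 and 17.4 RPKM alone versus 62.2 and 7.999 RPKM upon co-culture, with replicate 1 high in both groups, and Ptgs2 was at 80.8 and 54.3 RPKM alone versus 62.5 and 23.2 RPKM upon co-culture.

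Of 8 genes for the shedding, cleavage and clearance of chemokines 6 were tested, and none was called. Adam10, which encodes a protease known to release CXCL16 from the cell surface, was at 30.8 and 28.7 RPKM in keratinocytes alone versus 28.4 and 24.5 RPKM upon co-culture (log2 fold change -0.10, SE 0.27, adjusted p 0.892 by edgeR). Adam17 was at 23.8 and 17.2 RPKM alone versus 16.7 and 9.35 RPKM upon co-culture, and Timp3, the inhibitor of both proteases, was at 86.9 and 68.6 RPKM alone versus 72.7 and 39.5 RPKM upon co-culture.

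In the other comparisons, genes of these lists passed the threshold in edgeR's test as well. The shares of all genes called were 6.54% between T cells in medium and activated T cells, and 22.4% higher and 12.8% lower between keratinocytes alone and T cells in medium. Between T cells in medium and activated T cells, 4 of 16 other chemokine genes tested were lower in medium (Ccl3, Ccl4, Xcl1 and Ccl22), with Ccl3 at 12.8 and 10.6 RPKM against 291 and 260 RPKM. Ifng was lower (5.95 and 7.20 against 613 and 589 RPKM), and Tnfrsf1a, Dpp4 and Pecam1 were higher. Between keratinocytes alone and T cells in medium, 11 of 22 upstream signals were higher and 2 lower in keratinocytes, led by Il17rc, Tlr3, Il22ra1, Il1rn and Il1rl2. Of 19 NF-kB targets tested 5 were higher and 3 lower, led by Ptgs2, Lcn2, Tnfaip2, Nfkbiz and Traf1, of which Traf1 was lower. Timp3 and Adam17 were higher and Dpp4 lower in keratinocytes, Ppbp was higher and Pf4, Ccl22, Cxcl9 and Xcl1 were lower, and of the receptors Cxcr2 was higher and Ccr1 lower.

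The genes most like a member over all 10 libraries were sought among the 13394 genes tested by Pearson's r of log2(RPKM + 1). They are given as a description, since the cell type alone separates the points. For Cxcl14 they were Gpc4, Cyp2j6 and Ggt6 with r of 1.00, 0.999 and 0.999. For Cxcl16 they were Mok, Snx7 and Hsd3b7 with r of 0.997, 0.996 and 0.996, and for Cxcl1 they were Pdgfd, Prl2c3 and Rab22a with r of 0.996, 0.995 and 0.993. Pdgfd was low, at 0.149 to 0.384 RPKM in the keratinocyte libraries.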

How the data were processed

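Primary murine keratinocytes and CD8+ T cells were analysed in 10 libraries, grouped by their labels. The authors prepared poly(A) libraries, sequenced single-end reads and mapped them to GRCm38 (named in the submitters' notes) with default settings of the CLC Genomics Workbench. They deposited counts of exon reads per gene without normalization, counts of uniquely mapped exon reads, and RPKM values written with decimal commas. The annotation release and strand setting are not given in the sources used here.

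Counts were filtered by filterByExpr, scaled by TMM and tested by glmQLFit and glmQLFTest of edgeR (version 4.0.16, R 4.3.3), with Benjamini-Hochberg adjustment over all genes tested and a threshold of 0.05. The keratinocyte libraries, the T-cell libraries and all 10 libraries were fitted apart. SEs are the log2 fold change divided by the square root of F. RPKM was used for levels. Code was tested on simulated counts. Alternatives were other size factors, no filter, uniquely mapped reads, DESeq2 (1.42.0), limma (3.58.1, RPKM on a log2 scale with a pseudocount of 1 or 0.1), other sets of libraries, a replicate block and each library left out in turn.

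Genes of other lists were named where they passed the threshold (the 5 with the largest change if more) or were among the 3 highest in keratinocytes in the main comparison; others are said to have been chosen after their values were seen. Of the markers past the threshold, those of co-cultured T cells and, for T cells in medium against activated T cells, Pecam1 are given. The 9 members, the lists and the tests were chosen with earlier results of these data known. Protein sequences were not used here. Itgam of the myeloid markers matched no gene in the tables.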

Additional observations from a re-analysis of the deposited data

Results flagged for a closer look

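Cxcl16 was higher in each co-cultured keratinocyte library than in each one of keratinocytes alone, whereas both co-cultured T-cell libraries were below both libraries of T cells kept in medium. Neither difference passed the threshold (adjusted p 0.658 and 1.0, edgeR). The co-culture effect in keratinocytes minus that in T cells was 1.70 on the log2 scale (SE 0.57). In a fit of all 10 libraries, added after the data had been seen, this difference had an unadjusted p of 0.0157 and an adjusted p of 0.482 over 13394 genes (edgeR), so that it did not pass the threshold, while 79 genes did. The T-cell levels rest on 26 to 86 reads per library.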

How the results depend on the processing

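No member was called between the keratinocyte groups or between T-cell groups under any alternative run. Cxcl16 kept its direction in all 14 alternatives, with log2 fold changes of 0.75 to 0.91 and adjusted p-values of 0.135 to 1.00, and Cxcl14 did so with -0.60 to -0.15. Cxcl1 turned to 0.23 and 0.29 with limma on log2(RPKM + 1) and log2(RPKM + 0.1), and to 1.66 without replicate 1 of keratinocytes alone and 0.30 without replicate 2 of the co-culture. Cxcl5 turned to -0.63 without replicate 2 of keratinocytes alone and to -2.08 without replicate 1 of the co-culture, where Cxcl2 turned to -1.31. Ccl20 turned to 2.31 without replicate 1 of keratinocytes alone and to 0.75 without replicate 2 of the co-culture. Ccl2 was not tested with uniquely mapped reads. Its log2 ratio of group means with these reads, scaled to depth, was -1.23, but it rested on at most 3 reads per keratinocyte library. With each library left out, the ranges were -0.81 to 1.66 for Cxcl1, -1.31 to 8.83 for Cxcl2, -2.08 to 2.31 for Cxcl5, 0.81 to 7.31 for Ccl2, -7.91 to 2.31 for Ccl20 and 0.26 to 1.04 for Ccl27a. Ccl2 was highest without replicate 1 of keratinocytes alone. The cause was not tested.

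Same-numbered keratinocyte libraries deviated together (r = 0.56 across 12515 genes), and the design text speaks of parallel experiments, but with 2 pairs the numbers do not establish a pairing. With the replicate number as a block, Cxcl16 was at 0.86 (adjusted p 0.167), Cxcl1 turned to 0.33, and 2 genes were called. With this block and a correction for gene length, Cxcl5 turned to -0.13 and 515 genes were called.

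Genes called between the keratinocyte groups, 0 in edgeR's test, were 11 without a filter, 186 with DESeq2, 4 with all 10 libraries in the fit, and 0 to 1164 with each library left out (1164 without replicate 1 and 21 without replicate 2 of the co-culture). For medium against activation, 776 genes became 1945 without a filter, 1947 with DESeq2 and 24 to 1067 with each library left out. For co-cultured T cells against medium, 31 became 141 without a filter, 87 with DESeq2, 99 and 107 with limma on log2(RPKM + 1) and log2(RPKM + 0.1), and 16 to 52 with each library left out. For keratinocytes against T cells in medium, 4714 became 2218 to 4983 with each library left out, and the 3 members called became 5 without a filter and with DESeq2, by Cxcl2 and Cxcl5, and 3 to 4 with each library left out. In this comparison Ccl2 ranged from -3.16 to 5.60 with each library left out, turning without replicate 1, and Ccl27a turned to 0.023 without replicate 2 of keratinocytes alone.

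The depth limits Ccl2, Ccl7, Ccl20, Ccl27a and Cxcl2, with at most 100 reads in a library. It also limits Cxcl5, with at most 106 reads and with 12 and 11 in replicate 2 of keratinocytes alone and co-cultured. Having 2 libraries per group limits all intervals.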
